A study of Mus musculus with 30 samples.

Results

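The comparison described here set blastocysts grown in GM501 against their monozygotic co-twins grown in SAGE 1-Step. The members were the 20 arrays whose titles name one of these media, 10 for each, out of 30 arrays in the series. Each array carried RNA of 1 blastocyst, and the pair number in the title joined 2 arrays to 1 embryo of origin, which gave 10 pairs. All embryos came from B6C3F1 x CD1 matings of hormone-stimulated females (PMSG, then hCG). Zygotes were collected from the oviducts after fertilisation in vivo and grown in KSOM(aa), an amino acid-supplemented medium for mouse embryos, until they had 2 cells. Sister blastomeres were then separated, and 1 went into GM501 CULT while its sister went into SAGE 1-Step, both of them media made for human assisted reproduction, with a well of its own for each. Twins were lysed as blastocysts at 4 days post coitum after 96 h in vitro (Theiler stage 5 in the labels), with about 40 to 50 cells each. The other 10 arrays, which entered no comparison of the media, held blastocysts of about 80 cells from undivided embryos kept in KSOM(aa). Every twin thus came from an isolated blastomere, whichever medium it grew in. The labels do not say from how many females or culture days the pairs came, so the spread between pairs is that of these embryos only.

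The mouse blastocyst has an outer epithelium, the trophectoderm, which pumps fluid into the cavity and later forms the placenta. The inner cell mass inside it separates into the epiblast, the source of the embryo proper, and the primitive endoderm, which lines the cavity and forms the yolk sac. Embryo media supply energy substrates, amino acids and protein, and embryos of the same kind can differ in gene expression between media. Co-twins of 1 embryo share their genome, sex and early history, so a difference within a pair leaves out what differs between embryos. It keeps what differs between sister blastomeres, between wells and between amplifications of very small amounts of RNA.

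The question of the comparison was which transcripts depend on the medium when the embryo of origin is held constant. Signals were the deposited log2 values, so that a difference of 1 is 2-fold, and a difference is GM501 minus SAGE 1-Step throughout. The test covered 18090 genes, the upper 60% of 30142 measured genes by their mean signal, with means of at least 4.8. Of the trophectoderm markers, Krt8 and Krt18, which encode keratins of that epithelium, had medians of 15.56 and 17.64 in GM501 twins and 15.5 and 17.55 in SAGE twins. Nanog, an epiblast regulator, had medians of 13.42 and 12.68, and Gata6 of the primitive endoderm 11.96 and 11.76. Other markers of these lineages had lower signals. Gata2 of the trophectoderm had medians of 6.83 and 6.92, and Gata4 of the primitive endoderm 5.7 and 5.68. Fgf4 of the epiblast had 4.83 and 4.61, near the lowest level tested. The later primitive endoderm marker Sox17 was below the level needed for the test. Markers of other cells were examined on the same arrays. Of 15 markers of cumulus and granulosa cells on the array, 8 passed the filter, with a summed level of 10.31 to 11.78 in GM501 twins and 9.64 to 12.08 in SAGE twins, higher in GM501 in 4 of 10 pairs. Of 11 oviduct markers 4 passed (7.95 to 8.49 against 7.92 to 8.65, higher in GM501 in 4 pairs), and of 10 blood and immune markers 2 did (7.76 to 8.64 against 7.7 to 8.47, higher in 7 pairs). The defining genes Amh, Fshr and Foxl2 of granulosa cells, Pax8 of the oviduct and Ptprc of leukocytes lay below the filter. Those that passed included the cumulus gene Has2 (up to 7.22 in GM501 and 6.67 in SAGE), the oviduct gene Ovgp1 (up to 5.41 and 5.79) and the macrophage gene Cd68. Cd68 had 5.43, 6.34 and 7.75 in GM501 twins (lowest, median, highest) and 5.14, 5.71 and 6.72 in SAGE twins, with a mean difference of 0.58 ± 0.245 (moderated SE) and 6 of 10 pairs higher in GM501. The granulosa genes Cyp11a1 and Amhr2 also passed, and Cyp11a1 ran from 4.23 to 6.86 in GM501 and from 4.2 to 6.79 in SAGE. The part of such cells in the results was not tested.

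Xist, the X-linked RNA made where an X chromosome is silenced, and the Y-linked gene Eif2s3y marked the sex of the embryos. Xist ran from 5.07 to 16.9 over the 20 twins, and co-twins differed by at most 1.99, in pair 3. Eif2s3y ran from 4.22 to 8.97, and co-twins differed by at most 0.55, in pair 8. On both genes each twin therefore matched its labelled partner in sex, which does not tell a partner from another twin of that sex. The array median over all 65956 transcript clusters was 4.88 ± 0.238 in GM501 twins and 4.89 ± 0.225 in SAGE twins (SD, n = 10 each), with ranges of 4.59 to 5.28 and 4.57 to 5.22. Within pairs it differed by -0.007 on average (SD 0.194, 10 pairs; p = 0.93, exact two-sided sign-flip permutation test, smallest possible p 0.00195). Pair 8 had the lowest value, -0.46, and also the lowest correlation between partners (r = 0.163 across genes centred within each medium, where the SAGE twin of pair 9 correlated better with its GM501 twin). Its array medians were 4.66 in GM501 and 5.12 in SAGE, and pair 1 had the highest difference, 0.25.

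Co-twins differed in many genes, but the differences were not the same from pair to pair. The root mean square of the within-pair difference over all 18090 genes ran from 0.52 in pair 7 to 0.93 in pair 8, with a median of 0.61. Averaged over the 10 pairs, gene by gene, the root mean square was 0.21. Genes 2-fold or more apart between co-twins made up 5.82% of all genes in pair 7, the least, and 22.5% in pair 8, the most. Pair 1 had 14.6% and pair 2 had 11.2%, and the remaining pairs lay between 6.53% and 9.36%. The direction also varied. In pair 1, 3.98% of genes were 2-fold or more higher in the GM501 twin and 10.6% lower, whereas in pair 8 these shares were 14.1% and 8.46%.

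In all, 8611 genes (47.6%) stood 2-fold or more apart in at least 1 pair, and 661 did so in 5 or more pairs. No gene did so in the same direction in all 10 pairs, and the most pairs in 1 direction for any gene were 8. Only 53 genes had a mean difference of 2-fold or more, 31 of them higher in GM501 and 22 lower. The median size of the mean difference was 0.095, and 9438 genes (52.2%) had a mean above 0. An average over 10 pairs is smaller than single pairs also where pairs differ without order, so these sizes are no measure of an effect of the medium by themselves.

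**Figure D1:**
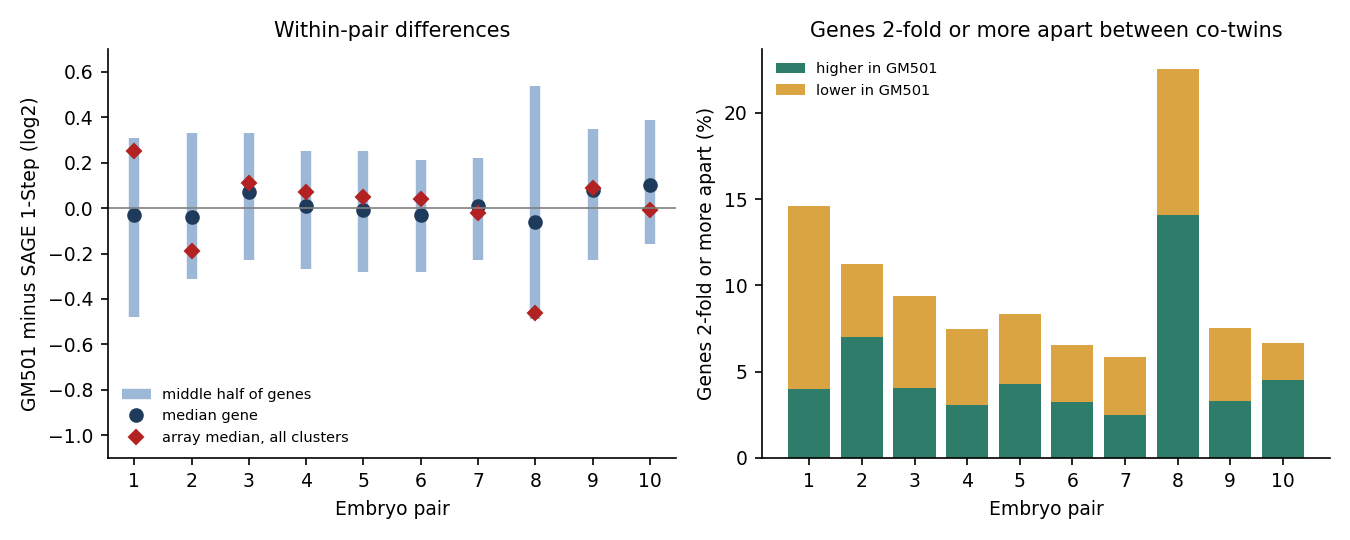
Within-pair differences over 18090 genes in each of the 10 embryo pairs. On the left, bars span the middle 50% of genes, circles mark the median gene and diamonds the difference in array median (log2, GM501 minus SAGE 1-Step); on the right, stacked bars give the percentage of genes 2-fold or more higher or lower in the GM501 twin, from 5.82% in pair 7 to 22.5% in pair 8.

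The pairs did not share a common profile of differences. Across genes, the differences of 2 pairs correlated with a Pearson's r between -0.195 (pairs 1 and 8) and 0.26 (pairs 2 and 8). The median over the 45 combinations was -0.0038, with 22 values above 0 and 23 below. These values describe genes within these embryos, and genes are not independent replicates. The largest pattern, the first component of the differences, took 24% of their sum of squares. Pair 8 had by far the highest score on it, 0.86, followed by pair 2 with 0.32, with pair 1 at the other end (-0.35). The other 7 pairs scored between -0.15 and 0.14.

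Few genes differed in the same direction in every pair. Of 18090 genes, 30 did (0.166%), with 19 higher and 11 lower in GM501 in 10 of 10 pairs. With random signs the chance of this is 0.00195 for a gene, so the count is no more than such signs give. Together with genes in which a single pair was out of line or tied, 279 genes (1.54%) had 9 or 10 pairs of the same sign. The most common outcome was an even division, with 4531 genes higher in GM501 in 5 pairs. The 30 genes had differences of 0.13 to 1.45 in size, with a median of 0.4, and 1 of them, Hpse, reached 2-fold. Of the 30, 26 had an unadjusted p under 0.05 in the test below, and the lowest adjusted p was 0.584. No gene had all 10 GM501 values above or below all 10 SAGE values.

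**Figure D2:**
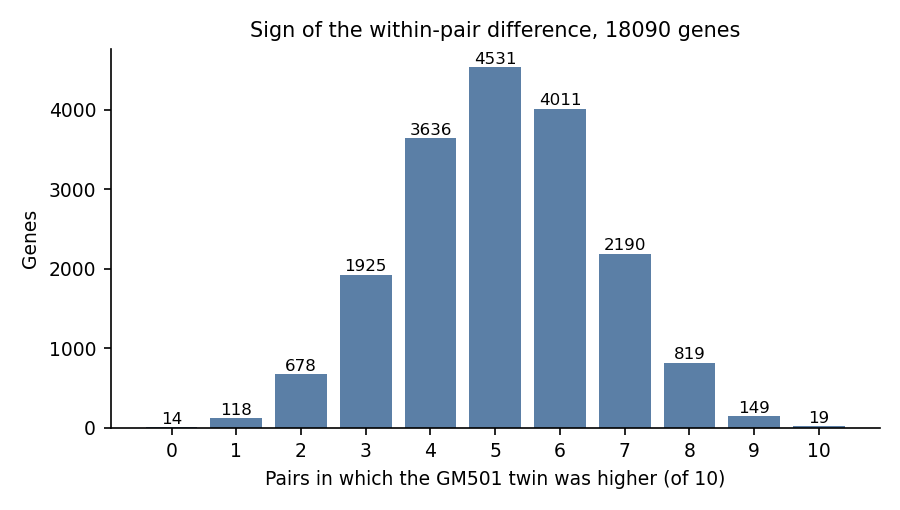
Number of genes, of 18090, by the number of pairs in which the GM501 twin had the higher signal. Bars are centred on 5 pairs (4531 genes), with 19 genes at 10 pairs and 14 at 0 pairs, 3 of which include a tie.

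Among the genes with 1 sign, those with the larger differences had varied roles. Scamp1, a membrane protein of secretory carriers, had signals of 5.55, 7.77 and 8.01 in GM501 twins (lowest, median, highest) and 7.89, 8.39 and 8.87 in SAGE twins. The highest GM501 twins overlapped the lowest SAGE twins, and the difference was -0.82 ± 0.205 (moderated SE, 10 pairs; limma adjusted p = 0.824), with 1 pair at -2.34. Kif18b, a mitotic kinesin, had 6.75, 8.18 and 10.1 in GM501 against 6.44, 7.17 and 9.48 in SAGE, with a difference of 0.64 ± 0.166 (limma adjusted p = 0.915). Rnf41, a ubiquitin ligase gene, and Mfap4, a gene of extracellular microfibrils, were lower in GM501 in every pair, with differences of -0.45 ± 0.132 and -0.35 ± 0.118 (limma adjusted p = 1.0 for both). Pair 8 stood apart for Mfap4, at -1.17. Rpl7, a protein of the large ribosomal subunit, was higher in GM501 in every pair by as little as 0.03 and at most 0.43. Its mean difference of 0.16 ± 0.0767 had an interval from -0.0041 to 0.33, so the same sign in all pairs came with a small and uneven size.

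No gene passed the test of the medium. In a limma fit with the pair as a block, 0 of 18090 genes (0.0%) had a Benjamini-Hochberg adjusted p under 0.05, and the smallest was 0.584. At an unadjusted p under 0.05 there were 695 genes (3.84%), 392 higher and 303 lower in GM501. That share is below the 0.05 that chance alone gives at this threshold. An exact two-sided sign-flip permutation test per gene gave 675 genes at an unadjusted p under 0.05. With 10 pairs its p cannot fall below 0.00195, a value that 30 genes reached. Adjustment over 18090 genes needs many more genes at that p before any is called. Its 0 calls were therefore nearly fixed in advance and add nothing to the result of limma. Set against the intact KSOM(aa) blastocysts, limma called 2493 genes (13.8%) for GM501 twins and 2918 (16.1%) for SAGE twins. Those comparisons share the 10 intact blastocysts, and medium, bisection and cell number cannot be told apart in them. The difference in numbers of calls was not itself tested.

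The 24 named genes with the smallest p are given as values, since none was called. They comprised 15 genes higher and 9 lower in GM501 by their means, with adjusted p from 0.584 to 0.824. Of these 24 genes, 7 had the same sign in 10 of 10 pairs, 14 in 9 and 3 in 8. The ranges of the media overlapped for each of them.

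Hpse encodes heparanase, which cuts heparan sulfate chains at cell surfaces and in basement membranes (chromosome 5, 100679484 to 100719716, GRCm38). Its signal was 4.89, 5.19 and 6.16 in GM501 twins (lowest, median, highest) and 5.53, 6.89 and 8.37 in SAGE twins. GM501 twins all lay near the low end of the array's scale, while SAGE twins were more widely spread. The difference was -1.45 ± 0.263 (95% interval -2.03 to -0.88; limma adjusted p = 0.584). It was lower in 10 of 10 pairs, from -0.52 in pair 2 to -3.26 in pair 9.

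Smim22 encodes a small membrane protein (chromosome 16, 5007288 to 5008309, GRCm38). Its signal was 11.99, 14.05 and 14.78 in GM501 twins and 11.45, 13.12 and 14.1 in SAGE twins. Both media shared most of their range, and pair 7 was lowest in both, at 11.99 and 11.45. Within pairs the GM501 twin was higher in every case, by 0.24 in pair 2 to 1.34 in pair 3. The mean difference was 0.75 ± 0.121 (95% interval 0.49 to 1.01; limma adjusted p = 0.584). Clec2f, a C-type lectin gene (chromosome 6, 129008803 to 129021342), had 6.1, 7.93 and 10.02 in GM501 and 4.74, 6.72 and 9.02 in SAGE. Its difference of 1.34 ± 0.235 (limma adjusted p = 0.584) came from 9 pairs between 0.68 and 2.84 and pair 2 at -0.04.

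Genes of lipid and sugar metabolism among the 24 included Pnliprp2, a pancreatic lipase-related gene, Nceh1, a cholesterol ester hydrolase, and Npl, a lyase that breaks down sialic acid. Pnliprp2 had 5.75, 7.97 and 9.73 in GM501 against 4.74, 6.09 and 8.67 in SAGE, with a difference of 1.28 ± 0.302. Npl had 12.32, 13.11 and 14.23 against 11.16, 12.29 and 13.85, with a difference of 1.11 ± 0.249, positive in 9 pairs and -0.66 in pair 5. Nceh1 had 4.58, 5.25 and 5.68 against 5.26, 5.62 and 6.14, and its difference of -0.5 ± 0.112 was negative in 10 of 10 pairs but ran from -1.04 to -0.02. The limma adjusted p of all 3 was 0.796.

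Other genes of the 24 act in signalling and the cell cycle. Rb1, the retinoblastoma tumour suppressor that restrains entry into S phase, had 5.2, 6.75 and 8.45 in GM501 twins and 5.92, 7.71 and 8.45 in SAGE twins. Its difference was -1.1 ± 0.272, with 9 pairs below 0 and pair 7 at 0.0. Pik3r3, a regulatory subunit of phosphoinositide 3-kinase, had a difference of -0.96 ± 0.233, and Spry2, an inhibitor of receptor tyrosine kinase signalling, 0.74 ± 0.184 (limma adjusted p = 0.824 for these 3 genes). Plk3, a stress-responsive kinase of the polo family, differed by -0.64 ± 0.142. Polr1a, the largest subunit of RNA polymerase I, was higher in GM501 in 10 of 10 pairs, by 0.53 ± 0.12, and Heatr3, a factor of ribosomal protein import, by 0.78 ± 0.191 in 9.

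Membrane traffic and organelle genes were also present in this group. Reep1, which shapes the endoplasmic reticulum, differed by 1.23 ± 0.289, with 6.8, 8.62 and 10.39 in GM501 against 6.7, 7.61 and 8.38 in SAGE. Stx18, a syntaxin of the endoplasmic reticulum, differed by 0.6 ± 0.141, Jph1, a junctophilin, by 0.52 ± 0.119 and Atad1, an ATPase that removes misplaced proteins from mitochondria, by 0.7 ± 0.173. Gstm3, a glutathione transferase, was higher by 0.45 ± 0.103 in 10 of 10 pairs, from 0.07 to 1.11. Zfp930, Zfp35 and Zxdb, all zinc finger genes, differed by 0.61 ± 0.131, -0.81 ± 0.178 and -0.56 ± 0.13. Fdxacb1 differed by 0.6 ± 0.147, the adhesion gene Cd99l2 by -0.67 ± 0.165 and Cnmd, the gene of chondromodulin, by -0.63 ± 0.146. Zxdb, Nceh1 and Cnmd had median signals of 4.58 to 5.25 in GM501, near the lowest level tested.

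**Figure D3:**
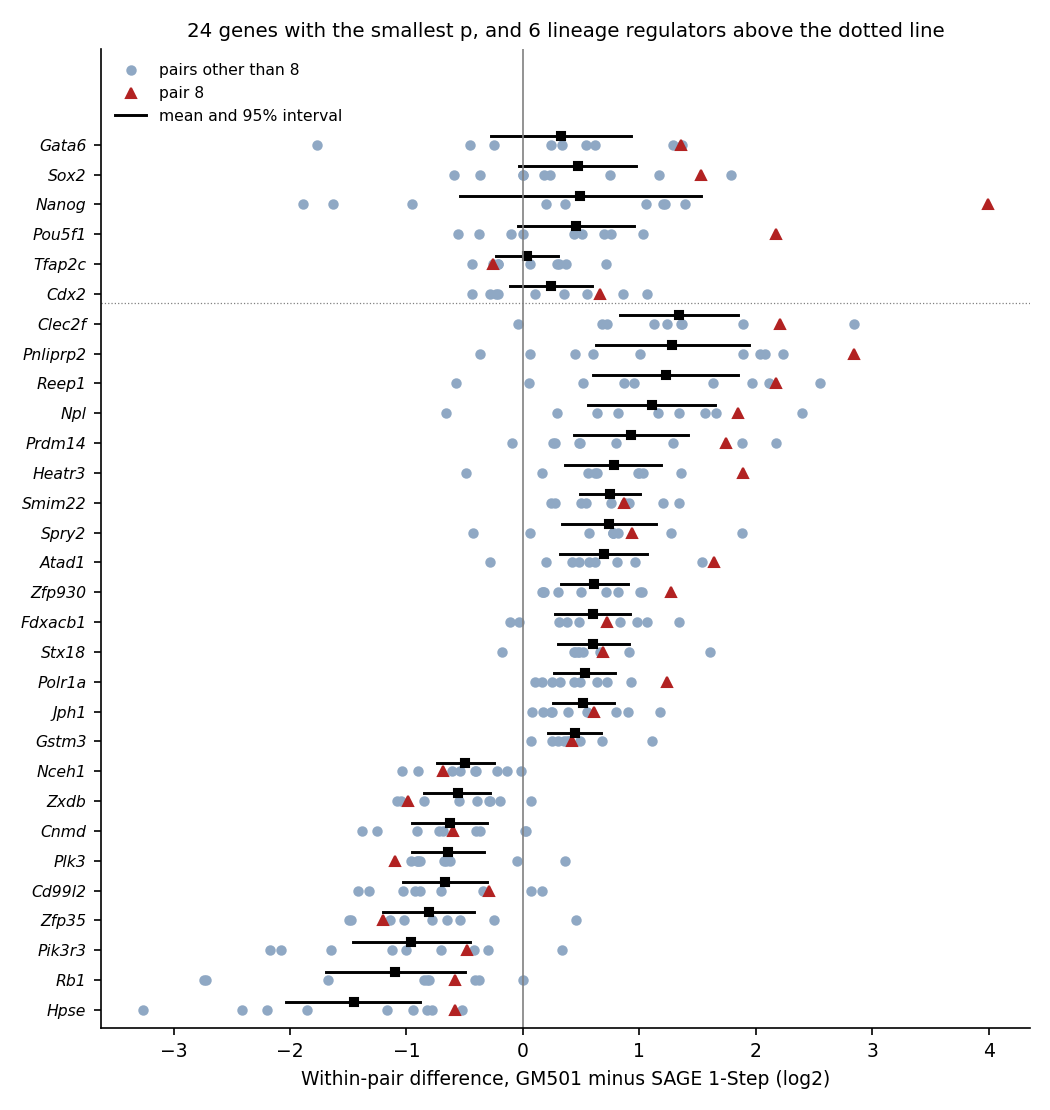
Within-pair log2 differences (GM501 minus SAGE 1-Step) of the 24 named genes with the smallest p and, above the dotted line, of 6 lineage regulators. Each point is 1 of 10 pairs, triangles mark pair 8, and squares with bars give the mean and its 95% interval; the means of the 24 genes run from -1.45 for Hpse to 1.34 for Clec2f, and their intervals lie clear of 0 because the genes were chosen by their p.

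The regulators of the lineages did not pass the test. Cdx2, which specifies the trophectoderm, had signals of 10.65, 11.38 and 12.0 in GM501 twins and 10.45, 11.02 and 11.67 in SAGE twins, with a 95% interval of the difference from -0.11 to 0.59. Tfap2c, another trophectoderm factor, had 7.08, 7.4 and 7.92 against 6.77, 7.32 and 8.28, and the interval was -0.23 to 0.3. For Cdx2 and Tfap2c the intervals left out a medium difference beyond 1.51-fold and 1.23-fold. The pluripotency genes were measured less precisely.

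Pou5f1, the gene of OCT4, had 7.72, 8.84 and 10.65 in GM501 and 7.79, 8.34 and 9.77 in SAGE (interval -0.039 to 0.95). Sox2 had 6.08, 6.81 and 8.92 against 5.75, 6.37 and 7.13 (interval -0.034 to 0.97). For Nanog the signals were 10.12, 13.42 and 14.7 against 10.71, 12.68 and 13.51, and the interval ran from -0.54 to 1.53. The GM501 twin of pair 8 had the highest Nanog signal of all twins and its SAGE co-twin the lowest of its medium, a difference of 3.99, while pairs 1 and 4 differed by -1.89 and -1.63. For Gata6 the interval ran from -0.27 to 0.93. All 6 regulators had a limma adjusted p of 1.0.

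Prdm14 and Tdgf1 had the smallest unadjusted p of the epiblast list, which held 22 measured genes. Prdm14, a transcription regulator that supports naive pluripotency, had 5.24, 6.07 and 7.84 in GM501 twins and 4.46, 5.29 and 6.37 in SAGE twins. It was higher in GM501 in 9 pairs, by up to 2.17 in pair 7, with a mean of 0.93 ± 0.226 (limma adjusted p = 0.824). Tdgf1, the Nodal co-receptor Cripto, had 8.44, 10.97 and 13.26 against 6.99, 9.66 and 11.79, with a difference of 1.65 ± 0.51 (limma adjusted p = 1.0). In pair 8 the co-twins stood 6.25 apart, 13.26 in GM501 and 7.01 in SAGE, and in the other pairs Tdgf1 differed by -0.4 to 2.42. The array also holds a pseudogene copy of Tdgf1, and its part in the signal was not tested. Of the whole epiblast list, 18 of 22 genes had a mean above 0 and 4 below, with a median of 0.19. Without pair 8 the median was 0.07, with 16 of 22 above 0, while it was 0.0042 in pairs 1 to 6, with 11 above 0, and 0.48 in pairs 7 to 10, with 21 above 0.

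For comparison, the median over all genes tested was 0.007, and 9438 of 18090 had a mean above 0. The 19 trophectoderm genes had a median of 0.027 with 10 above 0 and 9 below, and 2 at an unadjusted p under 0.05. These were Krt7, a keratin gene (-0.41 ± 0.143, lower in GM501 in 9 of 10 pairs), and Fgfr2, the receptor of the FGF signal from the epiblast (-0.29 ± 0.12, lower in 8). The 18 primitive endoderm genes had a median of 0.025, and their differences lay between -0.16 for Sox7 and 0.33 for Gata6. The 20 genes of cavitation and cell junctions, which build and seal the cavity, had 10 means above and 10 below 0, but 5 above 0 without pair 8, where the median was -0.11 in place of -0.014. The primitive endoderm median was -0.044 without pair 8. All these lists had 0 genes called.

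Lists of genes for metabolism, stress and growth had medians between -0.21 and 0.19, with 0 genes called in any list. Their order below follows the supply of nutrients, lipids, energy and protein. The 18 amino acid transporter genes had a median of -0.21, with 15 below 0 and 3 above. Slc7a1, the cationic amino acid transporter, had 7.59, 8.79 and 11.59 in GM501 and 8.34, 9.75 and 11.86 in SAGE. Its difference was -0.75 ± 0.279 (limma adjusted p = 1.0), lower in GM501 in 8 of 10 pairs. Slc7a7 and Slc38a2 differed by -0.66 ± 0.38 and -0.62 ± 0.535 and were lower in 7 and 6 pairs. By pair, the median of this list ran from -0.62 in pair 1 to 0.51 in pair 8. In pairs 1 to 6 alone the list median was -0.36, and in pairs 7 to 10 it was 0.034. The array median of the GM501 twin was 4.86 or above in the former and 4.66 or below in the latter. The SAGE twins of pairs 7 to 10 were not alike, with array medians of 4.57 to 4.67 in pairs 7, 9 and 10 but 5.12 in pair 8. Aminoacyl-tRNA synthetases, the enzymes that charge tRNAs, had 7 genes above and 10 below 0 and a median of -0.09, and ATF4 targets, genes of the amino acid response, had 6 above and 17 below with a median of -0.074. Both lists also differed between these sets of pairs, the synthetases with -0.31 and 0.32 and the ATF4 targets with -0.3 and 0.21. The synthetase median was 0.043 without pair 1 and -0.22 without pair 8.

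Of the genes of cholesterol synthesis, 14 of 16 had means above 0, and the median was 0.19. Hmgcs1, the gene of HMG-CoA synthase, differed by 0.48 ± 0.417, Idi1, an isomerase of the mevalonate pathway, by 0.3 ± 0.206 and Dhcr7, the final reductase, by 0.27 ± 0.159. The median was 1.3 in pair 8 and between -0.29 and 0.48 in the others, and without pair 8 it was 0.055. Fatty acid synthesis and desaturation genes had a median of 0.082, with 10 of 13 above 0, and -0.029 without pair 8. Acss2, which makes acetyl-CoA from acetate, differed by 0.26 ± 0.102, and Fabp5, a fatty acid binding protein, by 0.42 ± 0.164, each higher in GM501 in 8 of 10 pairs (limma adjusted p = 1.0). SREBP regulators and sterol uptake (6 of 11 above 0, median 0.001) and lipid droplets and fatty acid oxidation (9 of 16, median 0.07) lay close to all genes.

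Among energy genes, those of oxidative phosphorylation varied least between pairs, with a median SD of 0.24 against 0.48 over all genes. The 20 oxidative phosphorylation genes had differences between -0.21 and 0.082 with a median of -0.016, 7 above and 13 below 0. Ndufa1, a subunit of complex I, was lower in GM501 in 9 of 10 pairs, with a difference of -0.21 ± 0.0849. The 16 genes of glucose transport and glycolysis had a median of 0.079, and Pgk1, phosphoglycerate kinase, differed by -0.28 ± 0.126, lower in 8 pairs. The glucose transporter Slc2a1 differed by 0.41 ± 0.258. The glycolysis list had 11 of 16 means above 0, and without pair 8 it had 7 with a median of -0.0056. The tricarboxylic acid cycle list had a median of -0.005, with 7 of 17 above 0. Without pair 8, 1 of 17 was above 0 with a median of -0.1, and the list median was -0.13 in pairs 1 to 6 and 0.21 in pairs 7 to 10.

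In one-carbon and methionine metabolism, which supplies methyl groups, 12 of 17 genes were above 0, with a median of 0.093, and 8 without pair 8, with a median of -0.034. Dmgdh, dimethylglycine dehydrogenase, had 5.16, 6.35 and 8.3 in GM501 and 4.75, 5.64 and 6.16 in SAGE, with a difference of 0.81 ± 0.241, higher in GM501 in 8 pairs (limma adjusted p = 1.0). Bhmt, the enzyme that acts just before it in betaine breakdown, differed by 1.32 ± 0.483 but ran from -0.75 to 4.37, with 6 pairs above 0. The 14 genes of the DNA methylation machinery had a median of 0.15 (0.036 without pair 8). Dnmt1, the maintenance methyltransferase, differed by 0.51 ± 0.183, higher in GM501 in 9 of 10 pairs, and Mbd2, which binds methylated DNA, by -0.52 ± 0.138, lower in 9 (limma adjusted p = 0.95). The 22 imprinted genes had a median of -0.055, with 15 below 0. Kcnq1ot1, the non-coding RNA of an imprinted cluster, differed by -0.39 ± 0.144, lower in 8 pairs.

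Lists of growth and protein turnover had medians above 0 over all pairs, and those of 3 of them were near 0 without pair 8. They also differed between pairs 1 to 6 and pairs 7 to 10, with medians of -0.1 and 0.52 for the cell cycle, -0.19 and 0.47 for ribosome biogenesis and -0.078 and 0.4 for the proteasome. The cell cycle and replication list had 19 of 22 genes above 0 with a median of 0.15, and -0.013 without pair 8. Aurka, a mitotic kinase, differed by 0.44 ± 0.188, with 1.94 in pair 8. Ribosome biogenesis had 22 of 24 above 0 with a median of 0.096, and -0.043 without pair 8. Proteasome genes had 18 of 21 above 0 with a median of 0.1, and 0.013 without pair 8. Cytosolic ribosomal proteins had 10 of 12 above 0 with a median of 0.05. In the SAGE twin of pair 8 the array median was 5.12 and in its GM501 twin 4.66. With the array median of all twins as a covariate, the medians were 0.13 for the cell cycle and 0.085 for ribosome biogenesis. They were 0.089 for the proteasome and 0.044 for cytosolic ribosomal proteins. The part of the gap in pair 8 was not otherwise tested.

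Lists with smaller medians were growth factor and insulin signalling (-0.046, 9 of 20 above 0), the Hippo pathway (0.043, 12 of 18), redox defence (0.035, 8 of 15) and metallothioneins and zinc transport (0.079, 10 of 14). The hypoxia response had a median of -0.042 (5 of 14 above 0), p53 targets -0.022 (6 of 15), apoptosis genes 0.008 (8 of 16) and cytosolic heat shock chaperones -0.021 (6 of 12). Without pair 8, 1 of the 12 chaperone genes was above 0, with a median of -0.079. Residual oocyte transcripts had a median of -0.009 (6 of 14). Of the 2-cell stage transcripts, 5 were measured and all had means above 0, with a median of 0.19. Pair 9 stood out with 1.84, and without it 3 of 5 were above 0 and the median was 0.026. Over the 32 lists of lineages and processes, the median turned sign in 9 lists without pair 8 and in 3 to 5 lists without each of the other pairs. In 28 of the 32 lists it was higher in pairs 7 to 10, which include pair 8, than in pairs 1 to 6. Over all genes tested, the median of single pairs ran from -0.06 to 0.1 in pairs 7 to 10 and from -0.04 to 0.07 in pairs 1 to 6. The lists come from the same arrays, so the 28 are not separate results.

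**Figure D4:**
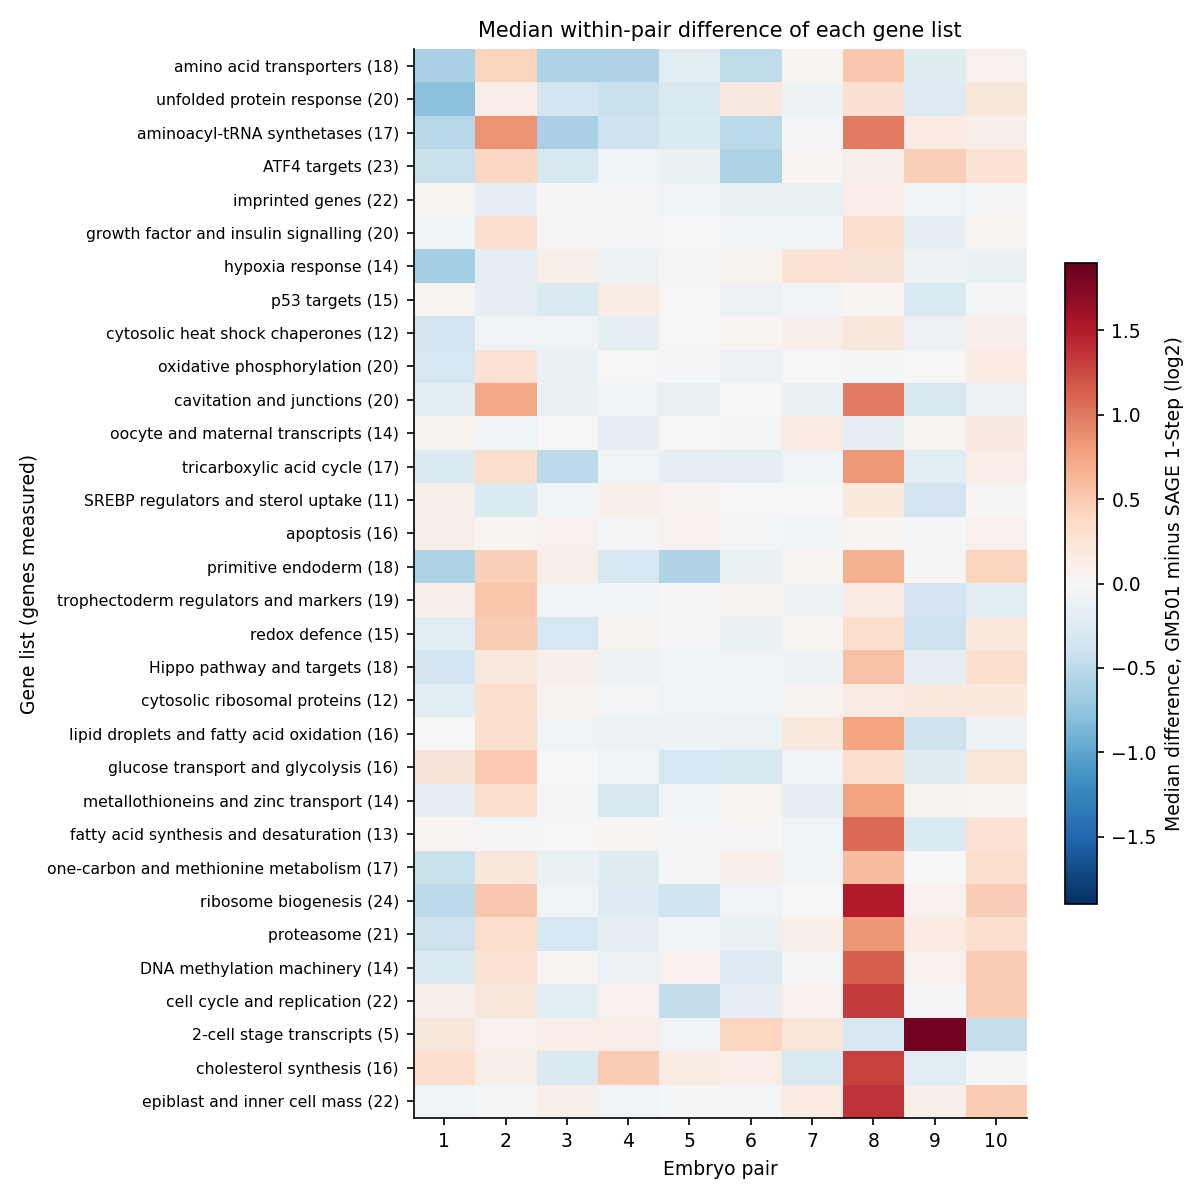
Median within-pair difference of each gene list (rows, with the number of measured genes) in each of the 10 pairs (columns), log2, GM501 minus SAGE 1-Step. Red is higher and blue lower in the GM501 twin; pair 8 holds the highest median of the epiblast (1.38), cholesterol (1.3) and ribosome biogenesis (1.5) lists, and pair 1 the lowest of the unfolded protein response (-0.78).

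In the unfolded protein response, 18 of 20 genes had means below 0 and 2 above. This response senses misfolded protein in the endoplasmic reticulum through 3 membrane sensors and raises chaperones and degradation factors. The sensors themselves differed little, Atf6 by 0.15 ± 0.205, Ern1 by 0.056 ± 0.141 and Eif2ak3 by -0.021 ± 0.112. Among the chaperone genes, Creld2 had 10.93, 12.18 and 13.62 in GM501 and 11.96, 12.89 and 13.99 in SAGE, with a difference of -0.6 ± 0.237. Dnajc3, a co-chaperone, differed by -0.53 ± 0.224, Sdf2l1 by -0.42 ± 0.197 and Hspa5, the chaperone BiP, by -0.34 ± 0.23. Of the degradation genes, Herpud1 differed by -0.54 ± 0.348, Edem1 by -0.46 ± 0.187 and Sel1l by -0.36 ± 0.213. All had a limma adjusted p of 1.0, and 3 of the 20 had an unadjusted p under 0.05. The list median was -0.15 over all pairs, -0.32 in pairs 1 to 6 and 0.017 in pairs 7 to 10. Single pairs ran from -0.78 in pair 1 to 0.29 in pair 8, with 4 of 10 above 0.

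Sequences of 3 promoters are shown because the list has a known shared element, the endoplasmic reticulum stress element, and these genes, chosen after their values were seen, had the lowest differences of the 8 in which a motif for it was found. The motif searched was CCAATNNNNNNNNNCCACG, on both strands, in windows from 250 bases before to 50 after each gene's start (RefSeq, GRCm38.p6). It was found in 37 of 27025 genes (0.137%) and in 8 of the 19 unfolded protein response genes with a window. Capitals mark the motif, and the strand printed is the plus strand, which is that of each gene. In Creld2 the motif lies on the opposite strand.
Hspa5, chr2:34771995-34772073: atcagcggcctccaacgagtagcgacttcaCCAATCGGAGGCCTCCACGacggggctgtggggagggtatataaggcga
Dnajc3, chr14:118937797-118937875: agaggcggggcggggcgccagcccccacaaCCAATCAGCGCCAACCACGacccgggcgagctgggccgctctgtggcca
Creld2, chr15:88819490-88819568: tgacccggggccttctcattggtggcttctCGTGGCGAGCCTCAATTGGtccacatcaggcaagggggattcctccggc
The 8 genes with a match (Hspa5, Hsp90b1, Dnajc3, Syvn1, Pdia6, Calr, Canx and Creld2) differed by -0.6 to -0.011, with a median of -0.2. The 10 measured genes whose window held no match had a median of -0.28, with 9 below 0, and 2 more, Atf6 and Hyou1, had no window to search. A match of letters is a description of the window and was not tested as a site.

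What the data could leave out about the medium followed from the spread between pairs. The median moderated SE of a gene was 0.15, and its 95% interval reached 0.32 to each side of the difference on the log2 scale. Without the pairing that half-width was 0.44. For each gene, the bound is the end of its interval farther from 0, the smallest medium effect that the interval leaves out in either direction. The median bound was 0.44, or 1.35-fold, the 10th percentile 1.19-fold, the 90th 1.82-fold and the 99th 3.11-fold. The interval lay inside 1.5-fold for 13080 genes (72.3%) and inside 2-fold for 16915 (93.5%), which left 1175 genes whose interval reached 2-fold or more. It lay inside 4-fold for all but 75 genes and within 0.322 of 0 on the log2 scale for 4578 (25.3%).

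These intervals are per gene and not joint. In a further step, 2 one-sided limma tests per gene were run with Benjamini-Hochberg adjustment over all genes. They excluded a difference of 2-fold or more for 17276 genes (95.5%) and of 1.5-fold or more for 13999 (77.4%). A difference of 0.322 or more on the log2 scale, the smallest size tested, was excluded for 0 genes (0.0%). The 4578 genes within that size are thus a count by unadjusted intervals only. Conversely, a single gene at the median SE, differing alone, would have needed a difference of 1.22, or 2.34-fold, to be called after adjustment. For a typical gene the 95% interval left out effects beyond the median bound of 1.35-fold. That bound is not adjusted for the number of genes, whereas the 2.34-fold is, so the 2 sizes are different criteria.

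**Figure D5:**
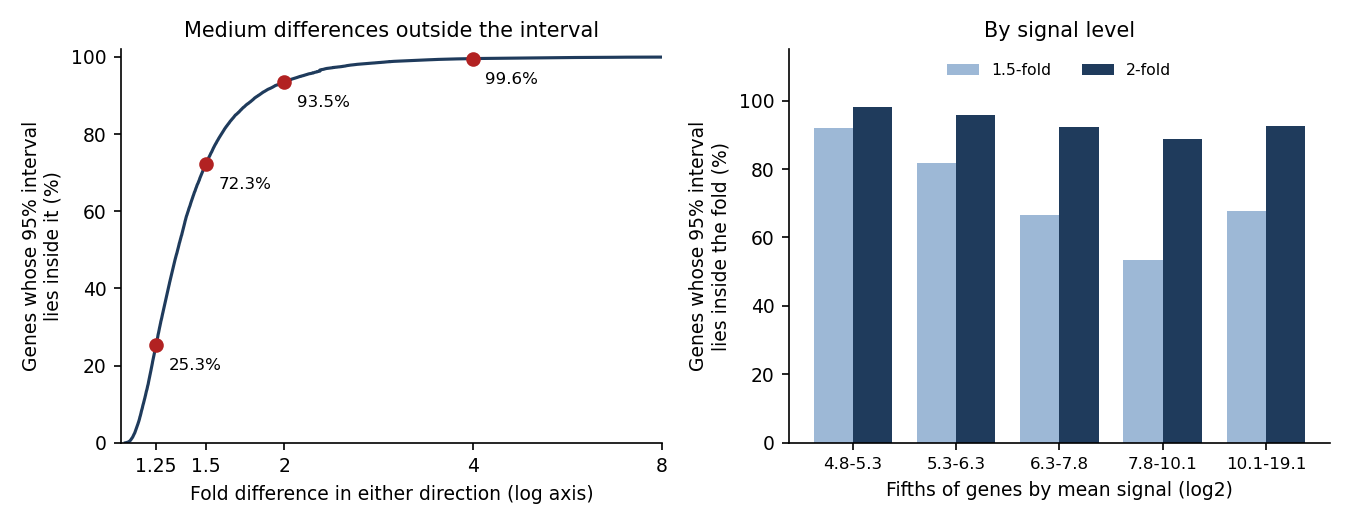
Left, the percentage of 18090 genes whose 95% interval lies inside a given fold difference in either direction (log axis), with 25.3% at the smallest fold marked, 72.3% at 1.5-fold, 93.5% at 2-fold and 99.6% at 4-fold. Right, the same percentage for 1.5-fold and 2-fold in 5 equal groups of genes by mean signal, lowest for the fourth group (53.3% and 88.8%).

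Precision varied with signal level. The median half-width was 0.25 in the lowest of 5 equal groups of genes by mean signal, then 0.29, 0.35 and 0.41, and 0.35 in the highest group. The share of genes whose interval lay inside 2-fold was 98.1% in the lowest group and 88.8% in the fourth. Array signals are known to flatten near both ends of their scale, so a narrow interval there covers the signal and not necessarily the transcript. Hspa8, a constitutive heat shock chaperone, and Dppa5a, a pluripotency-associated RNA-binding protein, had the smallest bounds of the listed genes, 1.12-fold each. Hspa8 had signals of 18.8, 18.99 and 19.27 in GM501 and 18.9, 18.97 and 19.25 in SAGE, and Dppa5a 18.51, 18.62 and 18.69 against 18.5, 18.6 and 18.71, next to the highest value of any array, 19.3. Plagl1, an imprinted zinc finger gene, and Amotl1, a Hippo pathway adaptor, had bounds of 1.13-fold and 1.14-fold at medians of 4.91 to 4.97, close to the lowest level tested.

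The listed genes that the data bounded least differed widely between co-twins. Phlda2, an imprinted gene that limits placental growth, had 5.01, 9.34 and 13.24 in GM501 twins and 5.08, 9.46 and 14.85 in SAGE twins. Its co-twins ranged from -7.04 in pair 9 to 3.98 in pair 4, and its difference of -0.47 ± 0.837 left a bound of 4.89-fold. Bhmt had a bound of 5.19-fold and Tdgf1 of 6.77-fold, both with their largest within-pair difference in pair 8 and higher in GM501, and Nupr1, a stress-induced chromatin regulator, of 3.52-fold. Over all genes tested the largest bound was 26.2-fold, for the predicted gene Gm22205. For such genes a several-fold effect of the medium was not excluded with 10 pairs.

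By list, the share of genes whose interval lay inside 2-fold told which processes were bounded. All 12 ribosomal protein genes lay inside 1.5-fold, and 19 of the 20 oxidative phosphorylation genes did. All 19 trophectoderm genes, 16 apoptosis genes, 21 proteasome genes and 17 aminoacyl-tRNA synthetase genes lay inside 2-fold. Inside 1.5-fold lay 11, 15, 16 and 6 of them, in that order. The synthetases were measured with low precision, with a median half-width of 0.54 against 0.32 over all genes. The lowest share among the process lists was that of the amino acid transporters, 11 of 18 (61.1%), followed by oocyte and maternal transcripts with 11 of 14 (78.6%), the unfolded protein response with 16 of 20 and the 2-cell stage transcripts with 4 of 5 (80.0% each), and the epiblast with 18 of 22 (81.8%). Of the 7 transporter genes that reached past 2-fold, Slc38a2 had the largest bound, 3.45-fold, followed by Slc7a7 with 2.81-fold and Slc7a8 with 2.77-fold. The same share over all genes was 93.5%.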

How the data were processed

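Values were the log2 signals that the authors deposited, made with Affymetrix Expression Console and RMA on build mm10, per the submitters' processing notes; their versions are not given in the sources used here. In RMA, background is removed, arrays are scaled to a common distribution and a cluster's probes are combined, so levels are relative within a gene. Base 2 follows from the range of the values, 2.2 to 19.3, as no source states it. Labelling used the GeneChip WT Pico kit, per the labels' protocols, and precision is limited by the number of arrays. Of 65956 transcript clusters, 32750 had a listed gene; 30604 carried 1 symbol (827 updated through the gene table of GRCm38.p6) and 2146 several, which were not used, among them those of Gata3 and Pdgfra. Cyp19a1, Foxj1, Hbb-bs and Hba-a1 were not matched. For a gene with several clusters the brightest over the 30 arrays represented it, and the upper 60% of genes by mean signal were kept.

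Media were compared in R 4.3.3 with limma 3.58.1 (lmFit with the pair as a block, eBayes, two-sided; p-values adjusted by Benjamini-Hochberg over all 18090 genes, with calls under 0.05), with moderated standard errors and 95% intervals on 12.0 degrees of freedom. The smallest effect that could be excluded was read from these intervals and from 2 one-sided tests per gene against 1.25-fold, 1.5-fold, 2-fold and 4-fold. The exact sign-flip test ran per gene over the 10 pairs. The scripts were tested on simulated data. Pairing comes from the titles, which number the embryo of origin; with genes centred within each medium, r between partners ran from 0.163 to 0.696 (median 0.452; -0.075 for arrays that are not partners), and for 7 of 10 GM501 twins, all but those of pairs 1, 3 and 8, the own partner had the highest r. No arrays were identical, and r between arrays ran from 0.928 to 0.985.

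Named genes were the 24 with the smallest p (predicted genes, pseudogenes and small RNAs counted but not named), 6 lineage regulators, the gene with the smallest p of each list, 4 genes with the smallest and 4 with the largest bounds, and 5 genes each way with 1 sign in every pair; further list members were chosen after their values were seen, to show the ends of their lists. The members, lists and settings were chosen with earlier results of these data known. The lists stand by their counts and medians only. Promoter sequences are from RefSeq. Alternatives changed scaling, filter, variance model, pairing and pairs.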

Additional observations from a re-analysis of the deposited data

Results flagged for a closer look

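Within-pair differences of the named genes and of the gene lists were examined for a pair standing apart from the other 9, by the gap of the highest or lowest pair to its neighbour relative to the whole range (Dixon's 95% critical value for 10 values). Of 107 groups of 10 examined, 15 had such a pair. The share of about 1 in 20 that chance gives holds for independent, unselected groups. Many named genes were chosen from these data by p, spread or sign, and the lists share arrays. The count of 15 therefore cannot be read against that share. Pair 8 was the pair in 9 of the 15.

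Among genes, the differences of pair 8 stood apart for Tdgf1 (6.25), Aurka (1.94) and Mfap4 (-1.17). Pair 9 stood apart for Usp17le (2.36), a gene of the 2-cell stage, and for Bak1 (-0.46), an effector of apoptosis. Pair 2 did so for the proteasome gene Psmb3 (1.4) and pair 3 for Mdm2 (-1.69), the ubiquitin ligase of p53.

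Among lists, the median of pair 8 stood apart for the epiblast and inner cell mass (1.38), cholesterol synthesis (1.3), fatty acid synthesis and desaturation (1.08), cell cycle and replication (1.33), ribosome biogenesis (1.5) and DNA methylation machinery (1.14). Pair 1 stood apart for the hypoxia response (-0.64) and pair 9 for 2-cell stage transcripts (1.84). The lists come from the same 20 arrays, so these values are not independent of one another.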

How the results depend on the processing

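Under all 23 alternatives 0 genes were called, with a smallest adjusted p between 0.143 (replicate block as a random effect, for Hpse) and 1. The exact sign-flip test, which is among them, could hardly call a gene with 10 pairs. The 695 genes at an unadjusted p under 0.05 became 367 of the upper 30% of genes, 225 with no replicate block and 1063 in pairs 7 to 10 alone. The block thus changed no call. The 30 genes with 1 sign in every pair became 16 in the upper 30% of genes; with fewer pairs to agree they became 47 to 61 leaving out each pair, 558 in pairs 1 to 6 alone and 2582 in pairs 7 to 10 alone. The median half-width of 0.32 was 0.54 in pairs 7 to 10 alone. The share of genes whose interval excluded 2-fold, 93.5%, was 87.6% with no replicate block, 86.7% with 99% intervals and 73.4% in pairs 7 to 10 alone. Of 71 named genes, 8 turned sign in 25 of 1610 values (Tfap2c, Nanog, Sox2, Dppa5a, Hspa8, Plagl1, Amotl1 and Phlda2), none of them among the 24 with the smallest p. The count of genes with 1 sign has no value under settings that alter the model alone. With 10 pairs of single embryos and 1 array each, spread between wells, sister blastomeres and amplifications cannot be told apart.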

Other observations

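Transcript clusters that carried no single gene were fitted apart in the same way. Of 14948 such clusters, limma called 0 between the media, with 532 at an unadjusted p under 0.05 and a smallest adjusted p of 1.0.

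The scores of the 10 pairs on the first component of the within-pair differences were set against the difference in array median between co-twins, 1 relation in all. Pearson's r was -0.981 (permutation p = 8e-05) and Spearman's rho -0.842 (permutation p = 0.004, 100000 resamples, two-sided). Without pairs 2 and 8, the pairs farthest from the median difference, r was -0.883. Both measures come from the same arrays.

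Of the other sex-linked genes, Uty correlated between co-twins with r = 0.963 and Kdm5d with 0.713, and co-twins differed in Kdm5d by up to 2.37 (pair 8). Usp9y (r = 0.558) differed by up to 1.64 and Zfy1 (r = 0.397) by up to 2.19, both in pair 9, with signals of 4.33 to 7.61 and 4.51 to 7.29. Sry (r = 0.341) ran from 6.11 to 7.09 over the twins and differed by up to 0.51 within pairs.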
